A study of Vitis vinifera with 4 samples.

Results

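The regions described here are the 5187 MYBPA1 binding events that lie on chr01, chr14 and chr17, chosen by chromosome name alone from a list of 30318 events over the grapevine genome (17.1%). Chr01 held 1807 of them, chr14 held 1979 and chr17 held 1401. MYBPA1 is a MYB transcription factor of grapevine (Vitis vinifera), and its events were mapped by DAP-seq (DNA affinity purification sequencing). In this assay a protein made in a cell-free system captures pieces of purified genomic DNA, which carry no chromatin, and the captured pieces are sequenced. The series held 2 libraries of HALO-tagged MYBPA1 and 2 of pIX-HALO, the control with the tag alone. Both groups used DNA of young leaves of the cultivar Pinot Noir (clone PN-94) and protein made in rabbit reticulocyte lysate. The data were 1 event list for MYBPA1 with no values per library, so no difference below was compared with replicate spread, and the number of reads behind the events is unknown.

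MYBPA1 is known as an activator of the genes for proanthocyanidins, the condensed tannins of grape skin and seed. MYB proteins of this class bind short DNA motifs in promoters, often beside a bHLH partner protein, and the labels name no partner protein here. The grapevine genome still carries the trace of an ancient triplication, and chr01, chr14 and chr17 are chromosomes with shared ancestry from it. The comparison therefore asks how far chromosomes of common origin resemble each other, and the other 16 numbered chromosomes, in the number, spacing and strength of the sites that MYBPA1 can hold on bare DNA.

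Chr17 and chr01 were rich in events and chr14 was not. Chr17 held 76.6 events per Mb of the span from its first to its last event (95% interval 72.6 to 80.7), and chr01 held 74.6 (71.2 to 78.2). Chr14 held 65.4 (62.6 to 68.4). In order of density among 19 chromosomes, chr17 ranked 2, chr01 ranked 3 and chr14 ranked 10. The other 16 together had 64.1 events per Mb (63.3 to 64.9), with a mean per chromosome of 64.0 ± 9.34 (SD, n = 16) and a range from 49.1 on chr09 to 84.2 on chr08.

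Against the other 16 together, the density of chr17 was 1.20 times as high (95% interval 1.13 to 1.26) and that of chr01 1.17 times (1.11 to 1.22), both beyond counting error. For chr14 the ratio was 1.02, with an interval from 0.976 to 1.07 that includes no difference. Within the group, chr17 exceeded chr14 1.17-fold (1.09 to 1.25) and chr01 exceeded chr14 1.14-fold (1.07 to 1.22), while chr01 and chr17 differed by less than counting error (ratio 0.975, 0.908 to 1.05). All of these densities lay inside the range of the other 16. Since events that stand close together can rest on the same fragments, these intervals, which cover counting error only, are too narrow. Events were also uneven at a larger scale, which the intervals leave out. Counts in 1 Mb windows had a variance of 10.3 times their mean on chr01, 7.35 on chr14 and 7.67 on chr17. Counting error alone gives a variance equal to the mean. Measured per 100 kb window that held an event, in place of the span, the density ratios were 1.13 for chr01, 1.11 for chr17 and 0.993 for chr14.

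**Figure D1:**
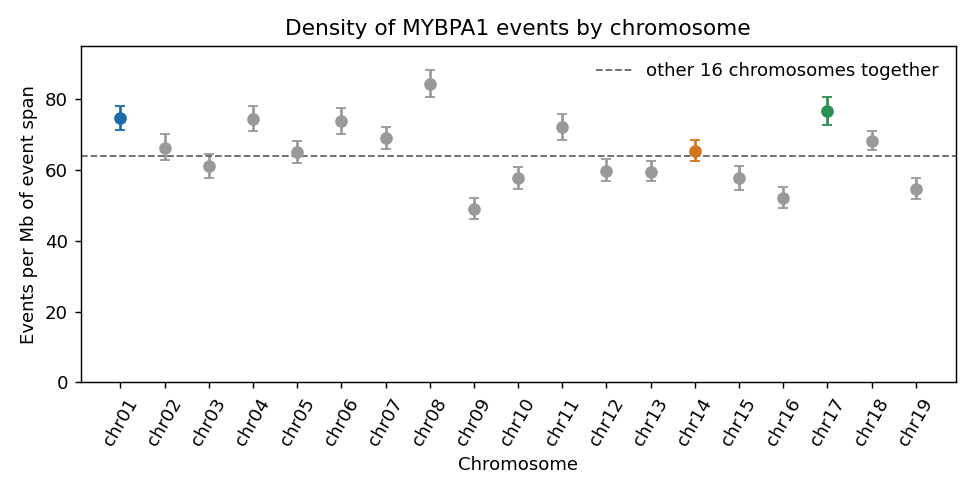
Events per Mb of event span (y axis) on each numbered chromosome (x axis), with 95% Poisson intervals. Chr01 (blue) and chr17 (green) stand above the dashed line of the other 16 together at 64.1, and chr14 (orange) at 65.4 lies near it.

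Events were spread differently along each of these chromosomes. On chr01, 62.3% of events (95% interval 60.1 to 64.5%) lay in the first 50% of the span, and on chr17, 61.6% (59.0 to 64.1%) did. The other 16 together had 54.9% there, with a median per chromosome of 59.2% and a range from 34.4% on chr15 to 65.3% on chr02, so that both shares lay inside the range of the others. Chr14 was tilted the other way, with 42.3% (40.2 to 44.5%) in its first 50%, a share that only chr15 undercut among the 19 chromosomes. Chr16, with 42.6%, and chr08, with 44.0%, lay within its interval. Chr01 and chr14 differed by 19.97 percentage points (16.8 to 23.1), and chr17 and chr14 by 19.3 (15.9 to 22.6). The orientation of a chromosome is a convention of the assembly, so these shares say which end of the numbering was richer and not that matching ancestral segments differed.

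The profile in steps of 10% of the span showed where the steps in density lay. Chr01 stayed between 78.5 and 104.5 events per Mb over its first 50%, then fell from 99.6 to 45.03 at the middle and to 35.5 at 60 to 70% of the span. Beyond that step it held 68.6, 47.5 and, in the last 10%, 84.7 events per Mb. Chr17 held 83.6 to 106.6 events per Mb up to 60% of its span and 43.7 to 56.3 beyond. Chr14 had its lowest value, 39.0, at 50 to 60% and rose to 97.2 and 91.9 over its last 20%. The other 16 chromosomes averaged 82.5 ± 16.9 (SD, n = 16) in the first 10% of the span, 45.5 ± 21.3 at 50 to 60% and 70.3 ± 14.6 in the last 10%.

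**Figure D2:**
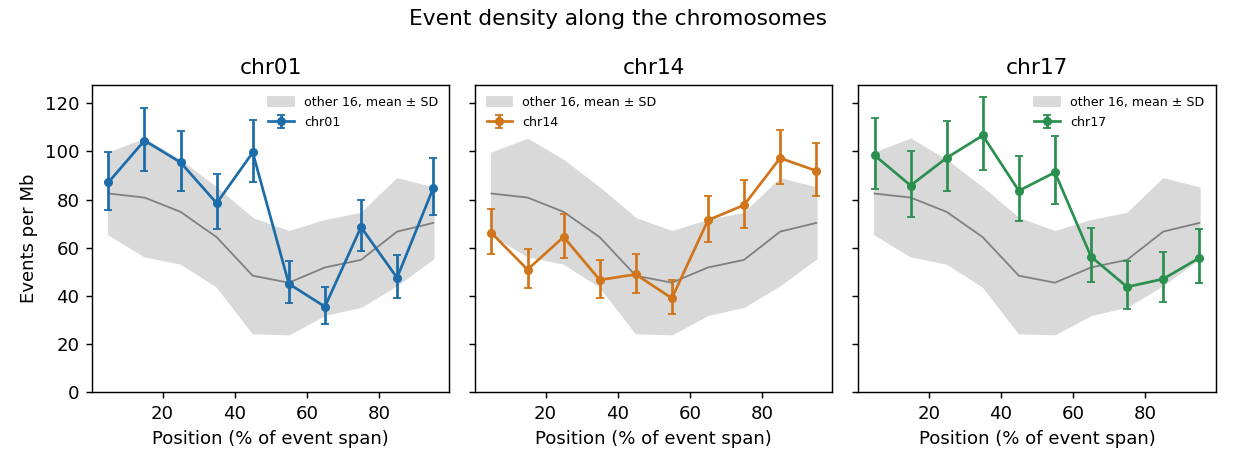
Events per Mb (y axis) in steps of 10% of the event span (x axis) for chr01, chr14 and chr17, with 95% Poisson intervals, over the mean ± SD of the other 16 chromosomes (grey). Chr01 and chr17 are dense from the start to 50 or 60% of the span, chr01 rises again in its last 10%, and chr14 is dense toward its end.

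The dense stretch of chr17 covered its middle, and chr17 had 36.7% of its events (95% interval 34.2 to 39.2%) in the middle 33.3% of its span, the highest share of the 19 chromosomes. The other 16 together had 26.3% there, 10.4 percentage points less (7.83 to 13.0), and ranged from 18.7% on chr07 to 36.3% on chr08. The share of chr17 was thus outside that range, but only just above chr08. Chr01, with 28.3%, and chr14, with 26.3%, differed from the other 16 together by less than counting error. When the middle 50% was taken instead, the share of chr01 exceeded that of the other 16 by 3.32 percentage points (0.956 to 5.71), beyond counting error. This was among 9 such changes in 104 alternatives.

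Counts in full windows of 1 Mb gave the same picture by position. The 18 windows of chr17 held a median of 83 events, from 37 to 107, and the 24 windows of chr01 a median of 85, from 9 to 113. The 30 windows of chr14 had a median of 63, from 24 to 104, close to the median of 64 over the 377 windows of the other 16 chromosomes. Chr14 and chr17 had no window with 10 or fewer events, and chr01 had 1. Counts varied less from window to window on chr14 and chr17, where their variance was 7.35 and 7.67 times their mean, than on 14 of the other 16 chromosomes. On chr01 the variance was 10.3 times the mean.

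The richest windows of chr01 were neighbours, from 4000001 to 5000000 with 113 events and from 3000001 to 4000000 with 112. Their median signals, 60 and 56, were above the chromosome's 50.1, but that of the next richest, from 10000001 to 11000000 with 109 events, was 46.8. On chr17 the richest windows were neighbours too, from 5000001 to 6000000 with 107 events and from 4000001 to 5000000 with 106, with median signals of 53.7 and 47.8. On chr14 they lay near the end, from 29000001 to 30000000 with 104 events and from 26000001 to 27000000 with 102. The poorest windows were chr01 from 14000001 to 15000000 with 9 events and from 15000001 to 16000000 with 29, chr14 from 15000001 to 16000000 with 24 and from 9000001 to 10000000 with 27, and chr17 from 13000001 to 14000000 with 37 and from 15000001 to 16000000 with 39.

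Each of these poorest windows overlapped a stretch of over 200 kb without events. Chr01 had 4 distances over 200 kb between neighbouring centres, the longest of 1008 kb (13645515 to 14653361) and 416 kb (21286188 to 21702470). Chr14 had 6, led by 657 kb (14881369 to 15538560) and 532 kb (9215253 to 9747666). Chr17 had 3, led by 399 kb (12921613 to 13320497) and 303 kb (14520942 to 14823718). Such stretches took up 7.98% of the span of chr01, 7.05% of chr14 and 4.94% of chr17, against 10.8% ± 6.94 (SD, n = 16) on the other chromosomes.

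Spacing between neighbours differed little among these chromosomes in its median and within 1000 bp, and more at distances over 20 kb. The median distance between neighbouring centres was 6652 bp on chr01, 6901 bp on chr14 and 6733 bp on chr17, against 7148 bp on the other 16 together. Of all numbered events 28.3% had a neighbour within 1000 bp. On chr01 this was so for 480 events or 26.6% (95% interval 24.6 to 28.6%), on chr14 for 576 or 29.1% (27.1 to 31.1%) and on chr17 for 409 or 29.2% (26.9 to 31.6%). Each differed from the 28.3% of the other 16 together by less than counting error, with differences of −1.73 (−3.79 to 0.432), 0.816 (−1.22 to 2.93) and 0.904 percentage points (−1.48 to 3.403). On chr01, the difference was −0.551 (−2.35 to 1.38) for neighbours within 500 bp and 2.47 (0.191 to 4.69) within 5000 bp. On chr17 the difference within 5000 bp was 1.59 (−0.999 to 4.10) and on chr14 0.802 (−1.41 to 2.95), both within counting error.

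A neighbour within 200 bp, where the 201 bp events overlap, was found for 10.6% of all numbered events. It was found for 191 events (10.6%) on chr01, 228 (11.5%) on chr14 and 139 (9.92%) on chr17. Events more than 20 kb from any other made up 5.6% of all numbered events, 3.54% on chr01 and 3.71% on chr17, lower than on 15 of the other 16 chromosomes, and 5.86% on chr14. Distances of 20 to under 50 kb formed 14.2% of all distances on chr01 (12.7 to 15.9%), 15.1% on chr17 (13.3 to 17.04%) and 17.5% on chr14 (15.9 to 19.3%), against 16.3% over the 19 chromosomes.

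**Figure D3:**
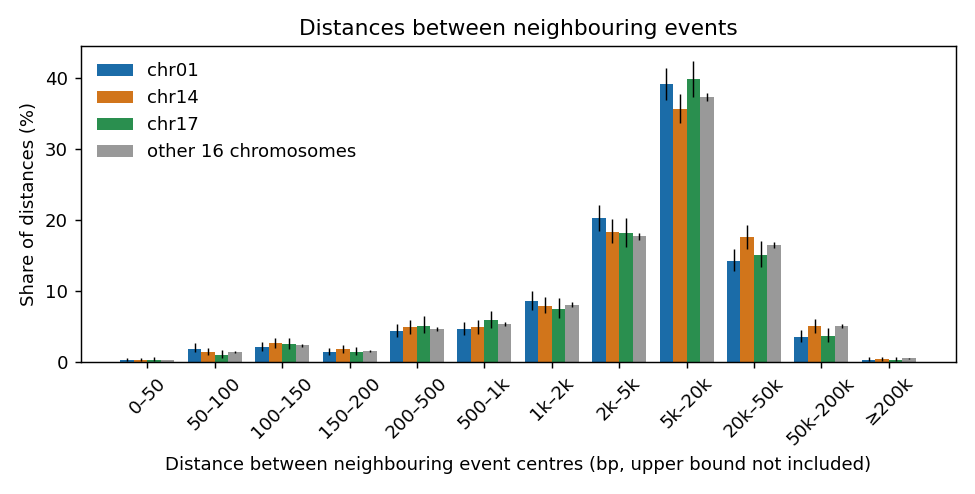
Share of distances between neighbouring event centres (y axis) by class of distance (x axis) for chr01, chr14, chr17 and the other 16 chromosomes together, with 95% Wilson intervals. The intervals of chr01, chr14 and chr17 overlap in every class under 20 kb, and chr14 has the most distances of 20 to 50 kb.

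Close neighbours were themselves unevenly placed on chr17, as on some other chromosomes. Between 30 and 40% of its span, close neighbours, within 1000 bp, were found for 81 of 195 events (41.5%, 95% interval 34.9 to 48.6%), compared with 29.2% over the chromosome and 27.5% ± 6.99 (SD, n = 16) in that step of the other chromosomes. The same step had the highest density of chr17, 106.6 events per Mb, and the part of density in this share was not tested. Other steps of other chromosomes had similar shares, 43.4% at 40 to 50% of the span of chr02 and 40.7% at 80 to 90% of chr13. On chr01 the share was lowest, 16.3% (9.95 to 25.5%), at 60 to 70% of the span, the step with the fewest events.

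When neighbours with centres no more than 1000 bp apart were joined, chr01 had 29 groups with at least 3 events, chr14 had 28 and chr17 had 27. These groups held 5.24% of all numbered events, and 4.98% of the events of chr01, 4.45% of chr14 and 6.21% of chr17, all inside the range of 3.42 to 7.23% over the other 16 chromosomes. The largest on chr17 had 5 events between centres 6961139 and 6962933, with signals of 87, 36, 83, 45.4 and 242.6 in order. The largest on chr14 also had 5, between 12127756 and 12129066, with 98.4, 220.2, 81.1, 61.3 and 47. On chr01 the largest groups had 4 events, and the strongest of these in sum lay between 3462455 and 3462818, inside the second richest window, with signals of 64.1, 104.3, 209 and 65.6. Each of these 3 groups had 1 event over 200 and the rest at 104.3 or less.

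The signal value, the authors' measure of strength for each event with no stated scaling, had nearly equal medians. It was 50.1 on chr01 (95% order-statistic interval 49 to 52), 50 on chr14 (48.8 to 52) and 50 on chr17 (48 to 51.5), against 49 on the other 16 together (48.9 to 49.6). Medians of the other 16 ranged from 46.9 on chr15 to 52 on chr08. Events with no neighbour within 1000 bp had a median of 49 on each of chr01, chr14 and chr17 and of 47.8 on the other 16 together. A −log10 q of 5 or more was reached by 58.5% of all numbered events, by 1082 (59.9%) on chr01, 1145 (57.9%) on chr14 and 831 (59.3%) on chr17.

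At the lower end of the signal, chr01 and chr17 differed from the other 16 beyond counting error. Signals under 30, near the lowest value of 22 in the list, were held by 12.4% of all numbered events, and by 182 events (10.1%, 95% interval 8.77 to 11.5%) on chr01 and 135 (9.64%, 8.20 to 11.3%) on chr17. Compared with the 12.8% of the other 16 together, the difference was −2.68 percentage points (−4.05 to −1.15) on chr01 and −3.12 (−4.61 to −1.41) on chr17. On chr14 it was −1.23 (−2.63 to 0.308), within counting error, with 228 such events (11.5%). Among events with no neighbour within 1000 bp, the difference of chr14 was −2.05 (−3.70 to −0.209), beyond counting error, also among the 9 such changes in 104 alternatives. Over the other 16, the share ran from 7.53% on chr08 to 17.2% on chr15.

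Chromosomes with more events per Mb had a smaller share of such weak events. Over the other 16 chromosomes, the correlation of density with this share was −0.724 by Spearman's rho and −0.756 by Pearson's r, and over all 19 it was −0.798 and −0.791. It is a description across chromosomes of 1 list, which share libraries and the event caller. How near chr01, chr14 and chr17 lay to that relation was not tested. Sorted by the density of the 1 Mb window, weak events formed 14.6% (11.9 to 17.7%) of the events of chr01, chr14 and chr17 in windows of fewer than 50 events, 12.5% (11.0 to 14.3%) in windows of 50 to 79 and 8.72% (7.77 to 9.79%) in windows of 80 or more. The single chromosomes did not all follow this order, with 14.6, 11.0 and 9.40% on chr01, 13.8, 15.3 and 7.70% on chr14, and 15.98, 8.31 and 8.82% on chr17. The same classes had 18.2% (16.96 to 19.4%), 13.6% (12.9 to 14.3%) and 10.1% (9.51 to 10.6%) on the other 16 chromosomes. In each class the share of chr01, chr14 and chr17 together was thus lower than that of the other 16, with intervals that overlapped. Of the windows of chr01, 13 of 24 were in the richest class, as were 9 of 18 on chr17, 10 of 30 on chr14 and 113 of 377 on the others.

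**Figure D4:**
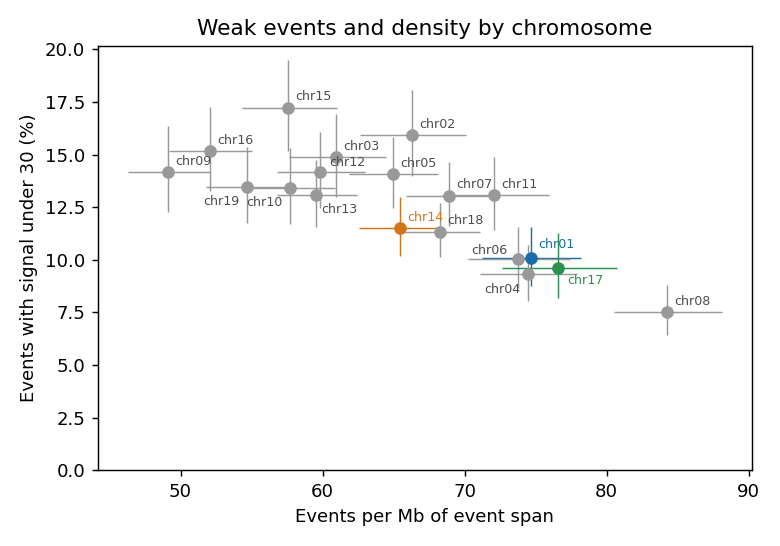
Share of events with a signal under 30 (y axis) against events per Mb of event span (x axis) for the 19 numbered chromosomes, with 95% Wilson and Poisson intervals. Chr01 (blue) and chr17 (green) lie among the dense chromosomes with few weak events, and chr14 (orange) lies in the middle of both axes.

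Median signal was highest at one end of each chromosome. It was 56 (49 to 62) in the first 10% of chr01, 57 (49 to 65) in the first 10% of chr17 and 57 (51.6 to 66) in the last 10% of chr14. The interval of chr14 lay above its chromosome's median of 50, and those of chr01 and chr17 included theirs. None of these was the densest step of its chromosome. The densest had medians of 55.8 on chr01 (10 to 20% of the span), 53.4 on chr14 (80 to 90%) and 49 on chr17 (30 to 40%). The last 10% of chr17, with 55.8 events per Mb, had the lowest value of these 3 chromosomes, 40 (37 to 49). In that step 18.6% of events were under 30. On chr17 the steps at 70 to 80% and 80 to 90% of the span were sparser. They held 43.7 and 47.0 events per Mb and had medians of 49.5 and 48.9. In the other 16 chromosomes the median averaged 49.4 ± 4.11 (SD, n = 16) in the first and 49.1 ± 4.45 in the last 10%. The steps were compared after their values had been seen.

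**Figure D5:**
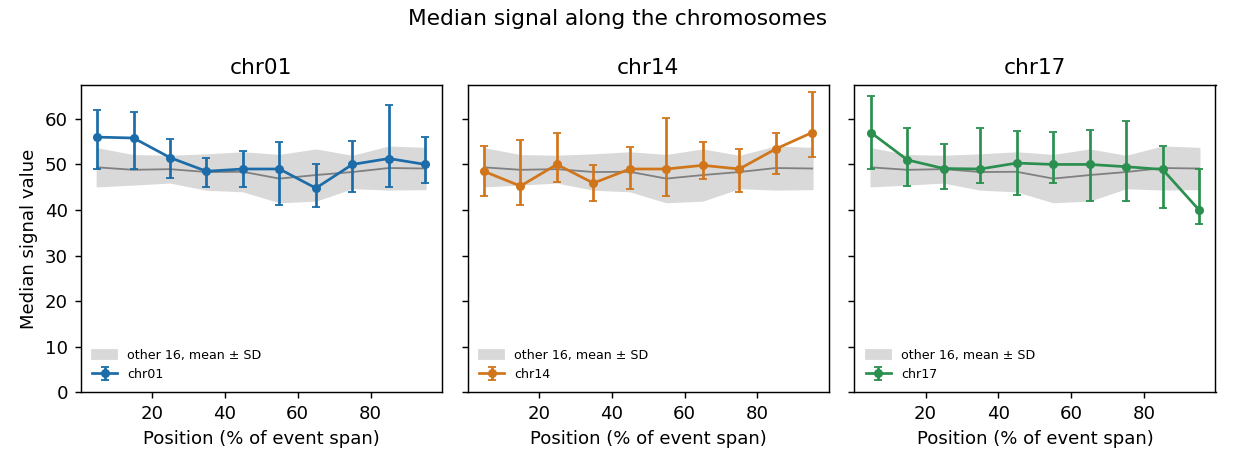
Median signal value (y axis) in steps of 10% of the event span (x axis) for chr01, chr14 and chr17, with 95% order-statistic intervals, over the mean ± SD of the other 16 chromosomes (grey). The medians reach 56 and 57 at the start of chr01 and chr17 and 57 at the end of chr14, and fall to 40 at the end of chr17.

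At the upper end, chr17 had the lowest 95th percentile of signal of the 19 chromosomes, 172.8, where the other 16 ranged from 176 to 201.2. It was 192.1 on chr14 and 193.9 on chr01. Signals of 200 or more were held by 4.44% of all numbered events and by 49 events (3.50%, 95% interval 2.66 to 4.59%) of chr17, 92 (4.65%, 3.81 to 5.67%) of chr14 and 85 (4.70%, 3.82 to 5.78%) of chr01. The difference between chr17 and the other 16 together, −0.965 percentage points (−1.85 to 0.159), did not exceed counting error. The strongest 1% of numbered events (0.999%), those of 381.9 or more, included 19 events on chr01 (1.05%, 0.674 to 1.64%), 24 on chr14 (1.21%, 0.816 to 1.80%) and 13 on chr17 (0.928%, 0.543 to 1.58%). None of these shares differed from that of the other 16 beyond counting error. The strongest 1% lay in 17, 21 and 13 separate windows of 100 kb, and they carried 7.93, 11.3 and 6.84% of the summed signal of their chromosomes. Over the 19 chromosomes, the 298 events of the strongest 1% lay in 262 such windows and carried 8.05% of the summed signal. Among events with a −log10 q of 5 or more, the strongest 1% was taken anew, with its own signal cut in place of 381.9. By that cut, the share of chr14 exceeded that of the other 16 by 0.802 percentage points (0.165 to 1.75), beyond counting error. This was among 9 such changes in 104 alternatives, and the cut of 381.9 was not tried on these events.

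The strongest single events were on chr14. Its first, at 6354501 to 6354701, had a signal of 1311.6. It exceeded the median of chr14 26.2-fold and ranked 6 among the events of numbered chromosomes. A weaker event of 177.3 stood 67 bp away. The second (12260135 to 12260335) had 1182 and the third (17972975 to 17973175) had 1131. For the first and the third the list gives only its ceiling for −log10 p, whereas the second, stronger than the third, had a −log10 p of 242.2. The fourth (26789024 to 26789224, signal 871.7) lay in the second richest window of chr14, and the fifth (28631899 to 28632099) had 841.

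On chr01, 3 of the 5 strongest events had no other event within 1000 bp, as had 1327 of all 1807 events of the chromosome. The first lay from 10796220 to 10796420 with a signal of 935 and its nearest neighbour, of signal 42, was 3184 bp away. The second (17942142 to 17942342) had 897 and no other event within 61465 bp. The fourth (15820826 to 15821026) had 691 and stood in the second poorest window of chr01, which held 29 events, with 25383 bp to its nearest neighbour. The third (24156669 to 24156869, signal 831.4) lay close to the end of the span, at 99.7% of it, and had a neighbour at 342 bp. The fifth (2963848 to 2964048) had 669 and a neighbour at 508 bp.

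The strongest event of chr17 was weaker than the third of chr01 and the fifth of chr14. It lay from 8805515 to 8805715 and reached 736, ranked 48 among the numbered events, and had 2 others within 1000 bp, the nearest at 29 bp with 358.1. The next were at 10262886 to 10263086 (630), 9713514 to 9713714 (625.8), 6922483 to 6922683 (596) and 1465932 to 1466132 (555). The first 4 lay between 37.8 and 56.0% of the span and the fifth at 7.92%. All of them were on the dense stretch of the chromosome, up to 60% of its span. Most events of chr17 lay there too, with 61.6% in the first 50% of the span and a further 11.9% at 50 to 60%. Whether strong events favoured this stretch was not tested. Chr17 thus combined the second highest density of events with the lowest 95th percentile of signal among the 19 chromosomes.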

How the data were processed

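The submitters' processing notes name the read trimmer fastp (0.21.0) and the aligner Bowtie2 (2.0). The name of the deposited list names GEM as event caller. For the caller settings, genome build, control and pooling of both MYBPA1 libraries, nothing is stated in the labels or the file. Per event the authors deposited a signal value and the −log10 of p and of q, beside a display score that was not used, with decimal commas that were read as points. The q column starts at 2, and the p column has a ceiling, which 2 of the events on chr01, chr14 and chr17 carry. Each event was 201 bp wide, and its middle base was taken as the centre. Positions count from 1.

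No genome or gene models of this build were used, so no gene, motif or sequence is given and the span from first to last event replaced chromosome length. Intervals are 95% exact Poisson (densities), exact conditional (density ratios), Wilson (shares), Newcombe (differences of shares) and order-statistic (medians) intervals. All cover counting error only, and no p-values were computed because the list has no replicates. The functions were tested on simulated data. The regions named were, on each chromosome, the 5 events of highest signal, the richest and poorest windows of 1 Mb, the longest distances and the largest group. The chromosomes and rules were chosen with earlier results of these data known. Shares in the first 50% of the span and of signals under 30 or of 200 and more, the steps of 10%, the classes of window density and other measures outside the planned 5 were added after the values were seen. The work used scipy 1.17.1, pandas 2.3.3, numpy 2.4.6 and matplotlib 3.10.9 under Python 3.11.15.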

Additional observations from a re-analysis of the deposited data

How the results depend on the processing

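Of 108 values recomputed for chr01, chr14, chr17 and these 3 together against the other 16 chromosomes, 95 stayed within the 95% interval of the reported value and 13 did not. No difference that exceeded counting error changed its direction or came within counting error in the 104 alternatives with an interval, and 9 differences within counting error came to exceed it. Of these 9, 3 were ratios of median signal. Among events with no neighbour within 1000 bp, they were 1.03 for chr14 and for the 3 together. Without events close to a stronger one, the ratio was 1.03 for the 3 together. The intervals of these ratios took the median of the other 16 as fixed and are too narrow. Whether the ratios exceed the counting error of both sides was not tested. Others were chr01 and the 3 together within 5000 bp, and chr17 in the strongest 5%. Chr01 changed in the middle 50% of the span (3.32 percentage points). Chr14 changed in the strongest 1% taken anew among events with a −log10 q of at least 5 (0.802). It also changed in signals under 30 among events with no neighbour within 1000 bp (−2.05). Per 100 kb window with an event, the density ratio was 1.11 for chr17 and 1.07 for the 3 together, and among the stronger 50% of events it was 1.15 for the 3 together. With neighbours counted within 5000 bp, the share with a neighbour exceeded that of the other 16 by 2.47 percentage points on chr01 and by 1.60 on the 3 together. With a −log10 q of at least 5, the difference in the share with a neighbour within 1000 bp was −1.28 on chr14. By the same cut, the ratio of median signal was 0.972 on chr01. With windows of 100 kb counted once, the difference in the share of the strongest 1% was 1.51 percentage points on chr01, 1.41 on chr14, 1.27 on chr17 and 1.41 on the 3 together, a share of windows and not of events. For the strongest 5% it was −1.18 on chr17 (95% interval −2.11 to −0.00898). In the stronger 50% of events, the difference of chr14 in the first 50% of the span was −15.2. The causes were not tested. Alternatives to the share in the first 50% of the span and to the share under 30 were chosen after seeing the data, and the others were planned. No paired analysis was possible because values per library are lacking, and for the same reason no replicate could be left out. Read depth is unknown, so no limit can be given for sites weaker than those listed.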

Other observations

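In pairs of neighbours no more than 200 bp apart, the median ratio of the stronger signal to the weaker was 1.57 on chr01 (97 pairs), 1.86 on chr14 (115 pairs) and 1.47 on chr17 (70 pairs), against 1.73 on the other 16 chromosomes (1321 pairs). Across 1 Mb windows that held at least 20 events, count and median signal had a Spearman's rho of 0.202 on chr01 (23 windows), 0.341 on chr14 (30 windows) and 0 on chr17 (18 windows), with Pearson's r of 0.229, 0.419 and 0.155. These are descriptions across windows of 1 list.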
